A study of Mus musculus with 12 samples.

Results

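The genes described here encode the subunits of oxidative phosphorylation, the 5 enzyme complexes of the inner mitochondrial membrane. Genes were taken whose single symbol in the array annotation begins with Nduf, Uqcr or Atp5, is Sdha, Sdhb, Sdhc or Sdhd, or is a Cox gene numbered from 4 to 8. The rule found 90 of the 18193 genes with a single symbol. It uses gene names only, but it was set with earlier results of these data known. Of these, 34 belong to complex I, 4 to complex II, 8 to complex III, 18 to complex IV and 17 to complex V, and 9 are assembly or other factors that carry the same name stems. All members are encoded in the nucleus. Each gene was read through 1 probe set, a group of short probes for 1 transcript, taken as the one with the highest mean over the 12 arrays.

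Complexes I and II pass electrons from NADH and from succinate to ubiquinone, complex III passes them on to cytochrome c, and complex IV hands them to oxygen. Complexes I, III and IV pump protons as they do so, and complex V, the ATP synthase, makes ATP as the protons flow back. Neurons draw most of their ATP from this pathway and spend much of it on ion pumping and synaptic transmission.

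The data came from outbred male Swiss mice aged 22 weeks at the end of the experiment. From 6 weeks of age all of them had 3 bottles, holding 5% ethanol, 10% ethanol and water, through 10 weeks of acquisition, 2 weeks of withdrawal, 2 weeks of reinstatement and 2 weeks of adulteration, when the ethanol was bittered with 0.005 g/L quinine, and then 1 more week of choice, which the labelled age does not cover. Inflexible drinkers kept their preference for ethanol through the quinine phase and had a mean blood ethanol of 113 ± 11.3 mg/dL, and light drinkers drank more water than ethanol and had 48 ± 13.3 mg/dL, both errors as the labels give them. Prefrontal cortex and whole striatum of both classes gave 4 groups with 3 arrays each. Both classes had drunk ethanol, so no group here is free of it, and water-only mice are not analysed here. The labels give 1 RNA pool concentration per group, so a group's 3 arrays may share 1 pool of RNA, in which case the p-values measure technical spread. That concentration was highest for inflexible and lowest for light prefrontal cortex, with both striatal groups in between and close to each other. It therefore differs along with drinking class in prefrontal cortex, and its part in the values was not tested. The chip number of array 1 of light prefrontal cortex is out of sequence with those of the other arrays.

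Values are log2 expression values as deposited, which ran from 2.76 to 11.56, and differences are log2 differences. A member was called where its adjusted p was under 0.05 (limma over all 45037 probe sets, Benjamini-Hochberg). At a mean of log2 4 or lower a probe set is near the bottom of the scale, and 12 of the 90 members lay there. Low values of this kind are compressed, so their differences are understated, and levels are not compared between probe sets.

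The arrays fell apart in a way that no label gives. The 9 spiked hybridisation control probe sets, which measure bacterial and phage RNA added to every sample, averaged 8.07 to 9.07 on 5 arrays and 6.20 to 6.80 on the other 7. The 5 arrays, called high-control arrays here, were array 2 of both prefrontal groups, arrays 1 and 3 of inflexible striatum and array 1 of light striatum. Each prefrontal group therefore held 1 high-control array of 3, but inflexible striatum held 2 and light striatum 1. The difference between 3′ and 5′ probe sets of Actb, a measure of RNA or cDNA length, ran from 2.13 to 2.75 on high-control and from 2.07 to 2.49 on low-control arrays, and that of Gapdh from 0.84 to 1.13 and from 0.52 to 1.06. Group comparisons are given both without and with this split as a term in the fit, called the split block.

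Promoter sequences are shown for members that later results turn on, because nuclear respiratory factor 1 (NRF1), ETS factors such as GABPA, YY1 and the estrogen-related receptors are the regulators best known for the nuclear genes of this pathway. RefSeq windows on GRCm38.p6, from 250 bases before to 50 bases after each gene's start, were held for 74 of the 90 members and searched on both strands. The NRF1 letters, GCGC, any base and TGCGC in a row, were in 17 of the 74 members and in 8.61% of the 14453 array genes with a window. CCGGAAG (ETS) was in 19 members and 15% of genes, AAGATGGC (YY1) in 10 members and 4.07%, and TCAAGGTCA (estrogen-related receptor) in 2 members and 0.401%. At least 1 of the 4 was found in 40 members and in 24.7% of all array genes. The matches below are read along the gene's own strand, with the matched letters in capitals, and all but the YY1 letters appear as their reverse complement. They are matches of letters only.
Sdhd, NRF1 letters, chr9:50603911-50603936, minus strand: gctggggtGCGCACGCGCggtggcag
Sdhd, ETS letters, chr9:50603881-50603903, minus strand: tctcctgcCTTCCGGttcacgct
Sdhd, estrogen-related receptor letters, chr9:50603800-50603821, minus strand: ttgtagagTGACCTTGAgccct
Ndufa5, NRF1 letters, chr6:24527699-24527724, minus strand: tgtgagctGCGCAGGCGCaaatctac
Ndufs4, YY1 letters, chr13:114388045-114388067, minus strand: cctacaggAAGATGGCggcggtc
Ndufa9, YY1 letters, chr6:126849100-126849123, minus strand: tgtgggagAAGATGGCggccgccg
Cox8a, ETS letters, chr19:7217607-7217629, minus strand: ccgaaataCTTCCGGctcgggcg
Sdhd held 3 of the 4 kinds of letters, and Atp5g3 was the other of the 2 members with the estrogen-related receptor letters. Ndufa4 and Ndufv1 held none of the 4 in this window.

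In prefrontal cortex most members had higher values in inflexible than in light drinkers, by small amounts. The difference was above 0 for 74 of the 90 members and below 0 for 16, with a median of 0.103, while the median over all probe sets was -0.001 and over the 10852 probe sets above log2 4 it was 0.007. The high-control arrays carried weight in this: the member median was 0.238 without array 2 of inflexible and 0.026 without array 2 of light prefrontal cortex. Without the split block 0 of 90 members passed the limma test, where 0.826% of all probe sets did. At an unadjusted p under 0.05, 10 members were higher and 0 lower, where 3.41% of all probe sets and 7.65% of those above log2 4 were higher. All 3 inflexible arrays lay above all 3 light arrays for 16 members (6.48% of all probe sets, 9.93% of those above log2 4), and below them for 2, Sdhc and Ndufa4l2 (6.46% of all probe sets).

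With the split block 5 members rose in inflexible prefrontal cortex and 0 fell. They were Ndufs4, Ndufv1 and Ndufa5 of complex I, Sdhd of complex II and Ndufa4 of complex IV. The share of all probe sets called higher in that fit was 1.15%, and of those above log2 4 it was 3.68%, so 5 of 90 is close to the share of other expressed probe sets. At an unadjusted p under 0.05, 24 members were higher and 2 lower, where 14.2% and 12.4% of probe sets above log2 4 were. On the low-control arrays alone (2 against 2) 3 members rose, Ndufs4, Ndufv1 and Atp5g1 (1.36% of all probe sets and 4.12% of those above log2 4). With the array number as a block over all 12 arrays 0 members passed (Ndufs4 at an adjusted p of 0.119, limma), where 0.457% of all probe sets did. With both blocks 4 rose, Ndufs4, Ndufv1, Sdhd and Ndufa9, where 1.05% of all probe sets and 3.47% of those above log2 4 rose, and Ndufa5 and Ndufa4 did not pass. With prefrontal arrays fitted by themselves and the number as a block, 3 members rose, Ndufs4 (adjusted p = 0.0376, limma), Cox5b (0.0487) and Ndufv2 (0.049), where 0.988% of all probe sets and 3.6% of those above log2 4 rose. These shares of members are again close to those of other expressed probe sets.

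Of the 34 complex I members, 31 were above 0, with a median of 0.124. Ndufs4, an accessory subunit needed to finish the assembly of the NADH-oxidising end of the complex, read 5.36, 5.51 and 5.41 on the 3 inflexible arrays and 5.04, 5.04 and 5.02 on the 3 light arrays. The groups did not overlap, and the high-control array was the highest of the inflexible arrays. The means were 5.43 ± 0.08 and 5.03 ± 0.01 (SD, n = 3), a difference of 0.39 (SE 0.08) or 1.31-fold, with a limma adjusted p of 0.0704 without and 0.0356 with the split block.

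Ndufs4 in both striatal groups lay with inflexible prefrontal cortex. The values were 5.32, 5.48 and 5.14 in inflexible striatum and 5.24, 5.35 and 5.44 in light striatum. Every striatal array was thus above every light prefrontal array. The other 3 probe sets of the gene had means of 3.89, 3.70 and 2.91, near the bottom of the scale, and differences of -0.07, -0.00 and -0.01 in prefrontal cortex.

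Ndufv1, the flavoprotein that takes electrons from NADH, read 6.81, 6.23 and 6.72 in inflexible and 6.39, 6.02 and 6.45 in light prefrontal cortex. The ranges overlapped because the high-control array was lowest in each group, and inflexible was above light on both kinds of array. The difference was 0.30 (SE 0.06 with the split block, n = 3), with a limma adjusted p of 0.831 without and 0.0367 with it. Without the block it was 0.48 when array 2 of inflexible, and 0.16 when array 2 of light prefrontal cortex, was left out. A second probe set of Ndufv1 differed by 0.67 (adjusted p = 0.00496 with the split block, limma) and the remaining one by 0.09 (0.791), so the size depends on the probes.

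Ndufa5, an accessory subunit of the arm that reaches into the matrix, read 7.01, 6.78 and 6.85 in inflexible and 6.73, 6.53 and 6.68 in light prefrontal cortex. The groups did not overlap. The difference was 0.23 (SE 0.04 with the split block, n = 3; limma adjusted p = 0.504 without and 0.0281 with it), and a second probe set of Ndufa5 differed by 0.27 (0.0324 with it).

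Other complex I members had differences of like size that did not pass. Ndufv3, an accessory subunit, differed by 0.37 (SE 0.10; limma adjusted p = 0.179), and Ndufs1, the largest iron-sulphur subunit, by 0.27 (SE 0.12; 0.686). For both, every inflexible prefrontal array was above every light one. The lowest value of complex I was that of Ndufb5, at -0.03.

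In complex II, Sdhd, a membrane anchor of succinate dehydrogenase, read 6.52, 5.83 and 6.42 in inflexible and 6.20, 5.70 and 6.12 in light prefrontal cortex. The high-control array was lowest in each group and the groups overlapped. The difference was 0.25 (SE 0.05 with the split block, n = 3; limma adjusted p = 0.979 without and 0.0492 with it). Without the block, leaving out array 2 of inflexible prefrontal cortex gave 0.47 and leaving out array 2 of light prefrontal cortex 0.10. The second Sdhd probe set, at a mean of 4.63, differed by 0.01. Sdha, the flavoprotein that oxidises succinate, differed by 0.13 (SE 0.08; 0.855) and Sdhb, the iron-sulphur subunit, by 0.17 (SE 0.24; 0.999). Sdhc, the other anchor, had the opposite sign, at -0.12 (0.999), and its other probe set differed by 0.05.

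In complex III, 6 of 8 members were above 0, with a median of 0.123, and 0 passed the limma test with or without the split block. Uqcrfs1, the Rieske iron-sulphur protein, differed by 0.25 (SE 0.19, n = 3; adjusted p = 0.953), and Uqcrc1, a core subunit, by -0.03 (SE 0.28; 1).

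In complex IV, 11 of 18 members were above 0, with a median of 0.014. Of the 18, 9 lay at or under log2 4. Among them were Cox4i2, Cox6a2, Cox6b2, Cox7a1, Cox8b and Cox8c, isoforms known mainly from lung, muscle, heart or testis. Cox7c, which is not one of these isoforms, also lay there through its chosen probe set. Ndufa4, found first with complex I and now placed in complex IV, read 8.28, 7.97 and 8.16 in inflexible and 7.81, 7.77 and 7.92 in light prefrontal cortex. The groups did not overlap, and the difference was 0.30 (SE 0.06 with the split block, n = 3; limma adjusted p = 0.523 without and 0.0327 with it). Its isoform Ndufa4l2 lay near 3 on all arrays.

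Cox6c, a small structural subunit of complex IV, read 8.97, 8.55 and 8.76 in inflexible and 8.39, 8.31 and 8.39 in light prefrontal cortex. No array of one group overlapped with the other. The difference was 0.39 (SE 0.16, n = 3; limma adjusted p = 0.594, and 0.0738 with the split block). It passed only when the probe sets of a gene were averaged (0.32, adjusted p = 0.0131, limma). Cox4i1, the regulatory subunit of the complex, differed by -0.01 (SE 0.32; 1) and Cox5a by -0.02 (SE 0.08; 1).

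In complex V, 15 of 17 members were above 0, with a median of 0.134, and 0 passed the limma test with or without the split block. Atp5b, the catalytic beta subunit, differed by 0.16 (SE 0.34, n = 3; adjusted p = 1), and Atp5a1, the alpha subunit, by 0.09 (SE 0.10; 0.996). The genes Atp5g1, Atp5g2 and Atp5g3 encode the same ring subunit with different import signals. Their differences were 0.32 (SE 0.36; 0.996), -0.00 (SE 0.14; 1) and 0.13 (SE 0.06; 0.627). Of the 9 assembly and other factors 8 were above 0, with a median of 0.097, and 0 passed.

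**Figure D1:**
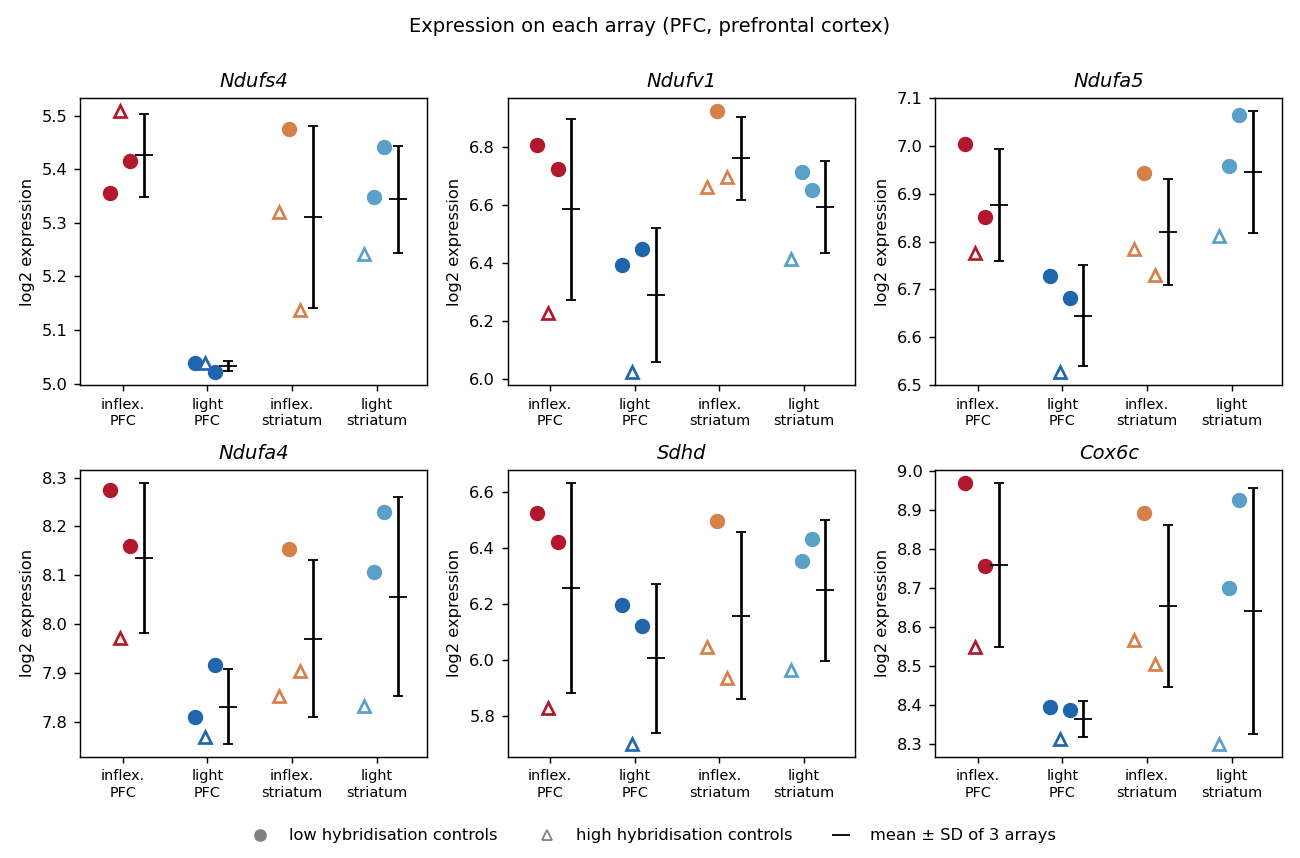
Log2 expression of 6 members on each of the 12 arrays, by group, with filled circles for low-control arrays, open triangles for high-control arrays and black bars for the mean ± SD of 3 arrays. The y axes start above 0. Light prefrontal cortex held the lowest mean of the 4 groups in each panel, and for Ndufs4 its 3 arrays, at 5.02 to 5.04, lay below all 9 others.

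Compared within arrays of one kind, 55 of the 90 members were higher in inflexible prefrontal cortex on the low-control arrays and on the high-control arrays alike, where 28.5% of all probe sets and 35.3% of those above log2 4 were. The median was 0.119 on the low-control arrays (2 against 2) and 0.091 on the high-control arrays (1 against 1). For 7 members inflexible was lower on both (28.7% of all probe sets). Other probe sets gave like signs: of 56 other probe sets above log2 4, belonging to 39 members, 52 had the sign of the chosen one in this comparison. The pattern was seen from the plotted values and was not tested. For 21 members the light prefrontal arrays were below every array of the other 3 groups within each kind of array (5.23% of all probe sets, 11.5% of those above log2 4), and these included Ndufs4, Ndufv1, Ndufa5, Ndufa4, Sdhd and Atp5c1, the gamma subunit of complex V.

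Markers of other cells moved in the same comparison. Medium spiny neurons are the main neurons of striatum, and 8 of 17 of their markers rose in inflexible prefrontal cortex with 0 falling (limma). The log2 of their summed level was 9.65 to 9.68 in inflexible and 8.73 to 8.79 in light prefrontal cortex, against 11.16 to 11.23 and 10.73 to 10.81 in striatum. Of 14 oligodendrocyte and myelin markers 6 rose and 0 fell, with summed levels of 10.63 to 11.08 in inflexible and 9.43 to 10.00 in light prefrontal cortex. Of 12 choroid plexus and ependyma markers 1 rose, Ttr, and 9 lay at or under log2 4 on all arrays. For that list the summed level was 10.39 to 11.10 in inflexible and 6.76 to 6.78 in light prefrontal cortex.

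With the split block the counts that rose were 10 of 17, 10 of 14 and 3 of 12. Without it, of 10 cortical excitatory neuron markers 1 rose, Neurod6, and of 11 interneuron markers 2 fell, Npy and Dlx1. Of 10 microglial markers 1 fell, Ctss, and 0 of 10 astrocyte, 0 of 10 vascular and 0 of 3 blood markers passed. With the split block Cux2, a cortical excitatory marker, also fell. Of 10 pan-neuronal markers 0 passed without the split block and 1 rose with it, Nefm, with a pan-neuronal summed level of 11.75 to 11.81 in inflexible and 11.81 to 11.86 in light prefrontal cortex. The part of these markers in the members' difference was not tested. In bulk tissue, fewer cells of a type and less RNA per cell cannot be told apart.

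Genes that work beside the complexes were read from 6 lists. With the split block 1.15% of all probe sets and 3.68% of those above log2 4 rose in prefrontal cortex. Counts near these shares are no result about a list. In prefrontal cortex 0 passed the limma test without the split block, and with it a few rose and 0 fell: 1 of 39 electron carriers and assembly factors, 1 of 17 citrate cycle and pyruvate dehydrogenase genes, 2 of 19 mitochondrial carriers, pores and import genes, 1 of 11 uncoupling and antioxidant genes, 0 of 14 glycolysis genes and 0 of 19 regulators of mitochondrial biogenesis. The genes were Cycs, which carries electrons between complexes III and IV (0.36, SE 0.07, adjusted p = 0.0367, limma), Idh3a, a catalytic subunit of isocitrate dehydrogenase (0.24, SE 0.04, 0.0166), the ADP/ATP exchanger Slc25a5, the aspartate/glutamate carrier Slc25a12 and the peroxidase Prdx3. The list medians were 0.09 for the carriers and assembly factors, 0.18 for the citrate cycle, -0.09 for glycolysis and 0.02 for the biogenesis regulators.

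In striatum no member passed the limma test between drinking classes, with 0 of 90 called without the split block (0.0111% of all probe sets) and 0 of 90 with it (0.0755%). The median difference was 0.004 without the block, with 46 members above 0 and 44 below, and 0.093 with it, with 70 above and 20 below. The median over probe sets above log2 4 was -0.011 and 0.030 in the same fits. At an unadjusted p under 0.05, 3 members were higher and 0 lower without the block (1.71% of all probe sets and 2.41% of those above log2 4 were higher), and 15 were higher and 0 lower with it, where 9.41% of probe sets above log2 4 were higher.

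The 3 were Atp5k, Cox6a2 and Cox8b. Atp5k, a small subunit of the membrane part of complex V, read 8.15, 8.10 and 8.20 in inflexible and 7.97, 7.90 and 8.01 in light striatum. The groups did not overlap and differed by 0.19 (SE 0.04, n = 3; limma adjusted p = 0.543). Cox6a2 and Cox8b, both at the bottom of the scale, differed by 0.15 (SE 0.05; 1) and 0.11 (SE 0.04; 1). Ndufs4 differed by -0.03 and Ndufv1 by 0.17 (adjusted p of 1 for both, limma), and the largest value, for Ndufs5, was 0.36 (1). By complex, the striatal medians with the split block were 0.084 for complex I (25 of 34 above 0), 0.124 for II (3 of 4), 0.110 for III (7 of 8), 0.093 for IV (15 of 18) and 0.145 for V (13 of 17). Of 56 other probe sets above log2 4, 33 had the sign of the chosen one in the striatal comparison and 23 the opposite.

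The 2 striatal groups differed in their share of high-control arrays, and its part in the striatal values was not tested. Within low-control arrays (1 inflexible against 2 light) the member median was 0.082, with 74 of 90 above 0. Within high-control arrays (2 against 1) it was 0.058, with 62 above 0. Both lay on the side of inflexible drinkers, where the median without the split block was near 0. Probe sets above log2 4 lay on that side too, with medians of 0.030 and 0.025 and 58.8% and 55.5% above 0. Without array 2 of inflexible striatum, the low-control array of that group, the median was -0.087, and without its array 3 it was 0.077. In the same comparison 0 of 17 medium spiny neuron and 0 of 14 oligodendrocyte markers passed without the split block (limma). With it 1 of the 17 rose, Pdyn, and 0 of the 14 passed. The log2 of the summed medium spiny neuron level was 11.16 to 11.23 in inflexible and 10.73 to 10.81 in light striatum. For oligodendrocyte markers it was 11.20 to 11.49 and 11.21 to 11.63.

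**Figure D2:**
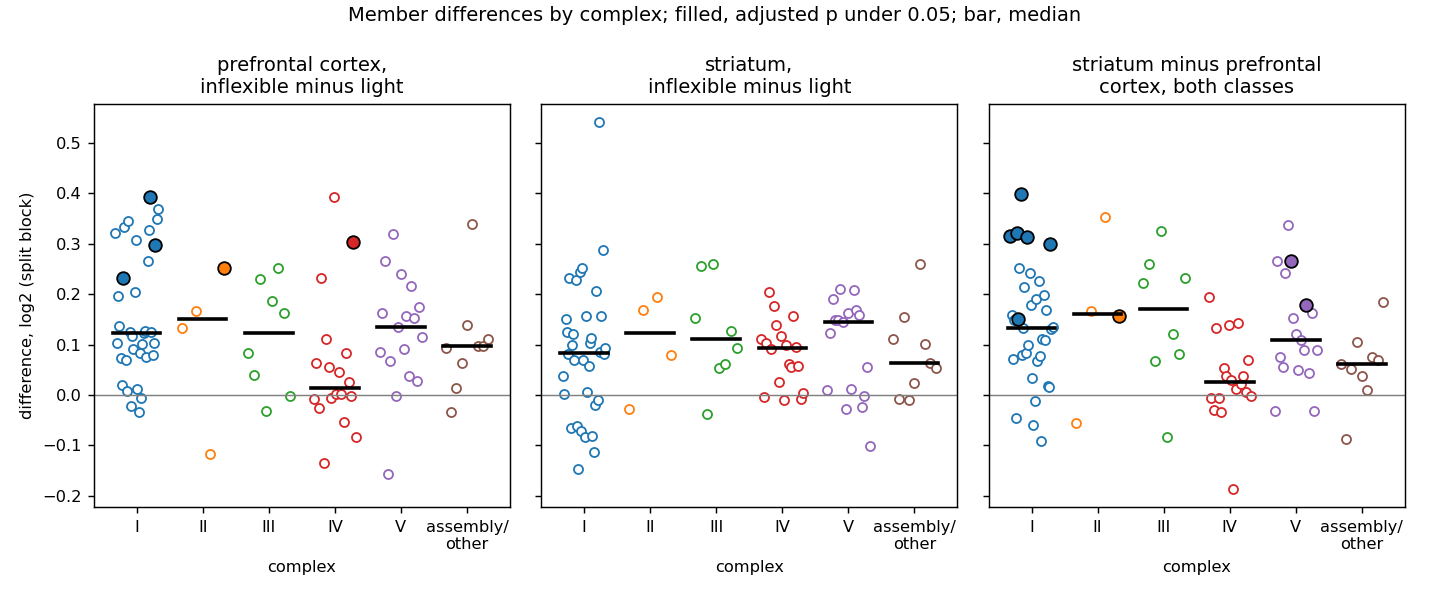
Each point is 1 member, placed by complex, and the y axis is its log2 difference in the fit with the split block in prefrontal cortex (inflexible minus light), striatum (inflexible minus light) and between regions. Filled points have a limma adjusted p under 0.05 (5, 0 and 9 members) and bars are medians, which lay above 0 in every complex of every panel.

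Whether the class difference itself differed between regions was tested by the striatal minus the prefrontal difference. It shares all arrays with the comparisons above, so its values are given side by side with theirs and not as a second observation. Without the split block 0 of 90 members passed (0.313% of all probe sets), 1 was higher and 4 were lower at an unadjusted p under 0.05 (2.73% of all probe sets and 6.15% of those above log2 4 were lower), and the median was -0.129. With the block 0 of 90 passed (0.984%), 4 were higher and 4 lower at that p, and the median was -0.029.

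The 4 lower members without the block were Ndufs4, Ndufa5, Ndufa4 and Ndufv3. For Ndufs4 the class difference was 0.39 in prefrontal cortex and -0.03 in striatum, and their difference was -0.43 (SE 0.11, limma adjusted p = 0.302). For Ndufa5 the values were 0.23 and -0.13, with a difference of -0.36 (SE 0.12; 0.614), and -0.30 (SE 0.06; 0.0727) with the split block. For Ndufv1 they were 0.30 and 0.17, with -0.13 (0.999). The prefrontal rise of these genes is therefore not shown to be absent from striatum.

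Between regions, striatum minus prefrontal cortex over both classes, 0 of 90 members passed the limma test without the split block (3.82% of all probe sets). At an unadjusted p under 0.05, 7 were higher and 0 lower, where 5.54% of all probe sets and 11.2% of those above log2 4 were higher. The member median was 0.063, with 70 above 0 and 20 below. With the split block 9 rose in striatum and 0 fell (4.12% of all probe sets and 11.2% of those above log2 4 rose). All 9 were among the 78 members above log2 4, and their share is close to that of other expressed probe sets. At an unadjusted p under 0.05 in that fit, 31 of the 78 were higher and 1 was lower. Of all probe sets above log2 4, 22.8% were higher and 18.8% lower. With the array number as a further block 19 rose (4.64% of all probe sets and 12.9% of those above log2 4). The 9 were Ndufa1, Ndufa3, Ndufa5, Ndufa7, Ndufb10 and Ndufv1 of complex I, Sdhd of complex II, and Atp5g2 and Atp5l of complex V. Of 56 other probe sets above log2 4, 41 had the sign of the chosen one in the regional comparison and 15 the opposite. Among the 9, Ndufv1 had a probe set of opposite sign. In the same fit 17 of 17 medium spiny neuron and 14 of 14 oligodendrocyte markers rose, and of 10 pan-neuronal markers 1 rose and 3 fell, and the part of cell makeup in the members' values was not tested.

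Ndufa7, an accessory subunit of complex I, had the largest of the 9 differences. It read 6.82, 6.05 and 6.70 in inflexible and 6.62, 6.10 and 6.64 in light prefrontal cortex, and 6.64, 6.99 and 6.79 in inflexible and 6.74, 6.79 and 6.94 in light striatum. The 2 high-control prefrontal arrays were the lowest of the 12, and the striatal and prefrontal ranges overlapped. The difference was 0.40 (SE 0.08 with the split block, adjusted p = 0.0167, limma) and 0.33 without it (0.401). Ndufa1, a small membrane subunit of complex I encoded on chromosome X, differed by 0.32 (SE 0.06; 0.0154), and its 3 light prefrontal arrays, at 8.00, 7.89 and 8.06, were the lowest of the 12.

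The regional values with the split block were mostly above 0 in each complex: 30 of 34 members of complex I (median 0.134), 3 of 4 of II (0.162), 7 of 8 of III (0.171), 12 of 18 of IV (0.026) and 15 of 17 of V (0.108). Over the probe sets above log2 4 the median was 0.019. Compared within arrays of one kind, the member median of striatum minus prefrontal cortex was 0.098 on low-control and 0.160 on high-control arrays of light drinkers, and 0.052 and 0.112 in inflexible drinkers. Sdhc had the largest regional value without the split block, 0.38 (SE 0.12, limma adjusted p = 0.138), and did not pass.

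The light drinkers' prefrontal arrays enter this comparison and the prefrontal one alike. With the classes apart and the split block, 7 of 90 members rose in striatum in light drinkers and 2 in inflexible drinkers. In light drinkers 3.19% of all probe sets and 8.74% of those above log2 4 rose. In inflexible drinkers the shares were 1.17% and 3.41%. The shares of members are thus close to those of other expressed probe sets. The 7 members in light drinkers were Ndufa1 (0.46), Ndufs4 (0.31), Ndufa5 (0.30), Ndufv1 (0.30), Sdhd (0.24), Atp5g3 (0.23) and Atp5l (0.21). In inflexible drinkers Ndufs4 differed by -0.09, and the members that rose were Ndufa3 (0.43, SE 0.08, adjusted p = 0.0303, limma) and Ndufv1 (0.30, SE 0.06, 0.047). The difference between the classes is the test of the preceding comparison, in which no member passed.

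The strongest pattern across the 90 members followed the spiked controls rather than drinking class or region. With the 4 group means in the fit, 54 of 90 members were lower on the 5 high-control arrays (17.2% of all probe sets and 40.2% of those above log2 4) and 4 were higher (10.5% of all probe sets and 12% of those above log2 4). The member median was -0.242, where that of probe sets above log2 4 was -0.123 and that of all probe sets 0.014. These sets were not matched for signal. Array medians ran from 6.50 to 7.17 for the members and from 4.87 to 5.00 for probe sets above log2 4. Whether the shift depends on signal was not tested. The split was drawn from the spiked controls and not from the members.

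By complex, 22 of 34 members of complex I, 2 of 4 of II, 5 of 8 of III, 7 of 18 of IV, 11 of 17 of V and 7 of 9 assembly and other factors were lower. Cox8a, a small subunit of complex IV, read 7.34, 7.36, 7.74, 7.39 and 7.36 on the high-control arrays and 7.98 to 8.34 on the low-control ones. No array overlapped, and the difference was -0.77 (SE 0.08, limma adjusted p = 0.000309), a 1.71-fold lower level. Atp5b read 7.87, 7.57, 8.40, 8.09 and 8.10 on the high-control arrays and 8.52 to 8.83 on the others, a difference of -0.74 (SE 0.09; 0.000774). Other large shifts were those of Atp5g1 (-0.76), Cox4i1 (-0.71), Uqcrq (-0.70), Uqcr11 (-0.68), Atp5l (-0.65) and Ndufa9 (-0.64), each with a limma adjusted p between 4.99e-05 and 0.00316. All of these falls stayed called under the 18 alternatives of the closing section, but their sizes varied. The smallest were -0.17 for Uqcrq, -0.42 for Atp5g1 and -0.49 for Cox8a, and between -0.64 and -0.54 for the others named here. All 5 high-control arrays lay below all 7 others for 25 members (6.34% of all probe sets, 15.7% of those above log2 4), and above them for 4 (5.22%).

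The 4 that passed as higher were Uqcrb of complex III, Atp5md of V, Ndufc2 of I and Cox7a2 of IV. Uqcrb, the ubiquinone-binding subunit of complex III, read 9.95, 9.90, 9.80, 9.74 and 9.89 on the high-control arrays and 8.94 to 9.44 on the low-control ones, a difference of 0.63 (SE 0.09; limma adjusted p = 0.00138). Other probe sets of Uqcrb, Ndufc2 and Cox7a2 did not follow. The second Uqcrb probe set differed by 0.00 (0.99), 2 others of Ndufc2 by -0.61 (0.00026) and -0.19 (0.0236) against 0.55 for the chosen one, and the second of Cox7a2 by -0.13 (0.117) against 0.32. Cox6c showed the reverse, with -0.32 for the chosen probe set and 0.41 (0.00614) for the other. Of the 56 other probe sets above log2 4, 38 had the sign of the chosen one.

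Atp5l and Atp5md, both small subunits of the membrane part of complex V, went opposite ways on the same arrays. Atp5l read 6.83, 6.68, 7.05, 7.00 and 6.79 on the high-control arrays and 7.25 to 7.61 on the others. Atp5md read 8.46, 8.26, 8.19, 8.36 and 8.23 on the high-control arrays and 7.54 to 7.79 on the others. Neither overlapped, and the differences were -0.65 (SE 0.04) and 0.62 (limma adjusted p = 4.99e-05 and 0.000202).

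The chosen probe sets of some members did not pass in either direction. Sdha differed by 0.04 (SE 0.06; limma adjusted p = 0.634), Atp5g3 by -0.01 (SE 0.04; 0.852), Cox5a by 0.10 (SE 0.05; 0.188), Ndufs4 by -0.07 (SE 0.06; 0.394) and Ndufv3 by -0.11 (SE 0.06; 0.209). For 3 of these another probe set fell, by -0.57 (0.000145) for Cox5a, by -0.40 (0.00291) for Sdha and, at a mean of 3.89, by -0.33 (0.00194) for Ndufs4. In complex II Sdhb (-0.52, SE 0.07) and Sdhd (-0.51, SE 0.04) fell and Sdhc (0.16, SE 0.12; 0.324) did not pass, but the second Sdhd probe set, at a mean of 4.63, differed by 0.07 (0.293), so in this complex the shift depends on the probes.

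**Figure D3:**
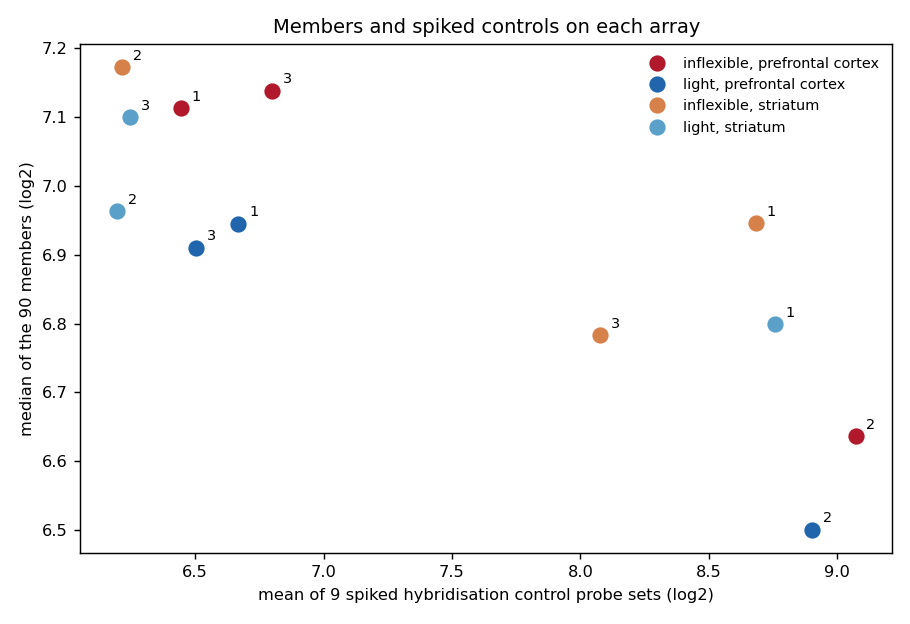
The x axis is the mean log2 value of the 9 spiked hybridisation control probe sets on an array, the y axis the median log2 value of the 90 members, and each point is 1 array, coloured by group and labelled with its number. The 5 high-control arrays, at 8.07 and above, held member medians of 6.50 to 6.95, and the 7 low-control arrays held 6.91 to 7.17.

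Each group showed the shift. Within inflexible prefrontal cortex the median of high minus low was -0.255, with 70 of 90 members below 0. It was -0.247 (66 below 0) in light prefrontal cortex, -0.254 (73) in inflexible striatum and -0.199 (72) in light striatum. In total 59 members were lower on the high-control arrays in all 4 groups (20.7% of all probe sets, 43.5% of those above log2 4) and 8 were higher in all 4 (23.7% of all probe sets). Ndufv1, Ndufs1, Atp5b, Cox4i1 and Sdhd were among the 59, and Ndufs4 and Ndufv3 were not.

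The size and balance of this shift depended on the scaling. When each array was centred on its median over probe sets above log2 4, 47 members were lower (11% of all probe sets and 32.1% of those above log2 4) and 18 higher (59.2% and 24.7%), and the median was -0.15. After quantile normalisation 48 were lower (11.3% of all probe sets and 26.3% of those above log2 4) and 7 higher (8.22% and 17.5%), with a median of -0.18. Genes beside the complexes also fell more often than they rose, as did 40.2% against 12% of all probe sets above log2 4, so shares near these are no result about a list: 20 of 39 electron carriers and assembly factors fell and 1 rose, 11 of 17 citrate cycle genes fell and 0 rose, 13 of 19 mitochondrial carriers fell and 2 rose, and 6 of 14 glycolysis genes fell and 3 rose (limma). Medium spiny neuron markers had 1 higher and 3 lower of 17, and oligodendrocyte markers 2 higher and 4 lower of 14. Where the split comes from was not tested.

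**Figure D4:**
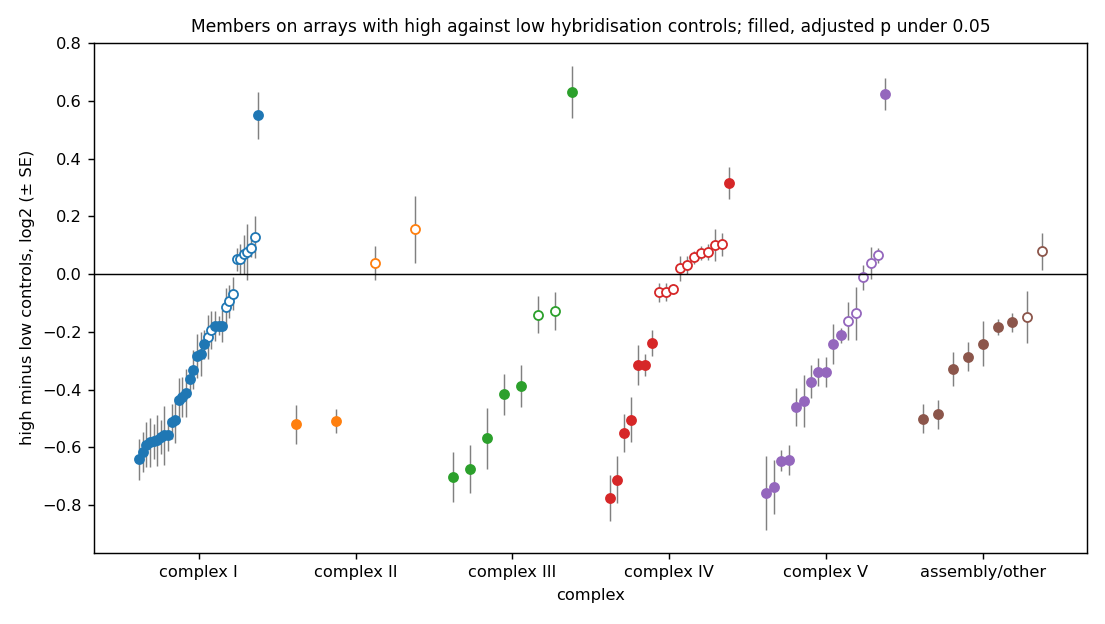
Each point is 1 of the 90 members, placed by complex and ordered by value, with its log2 difference between high-control and low-control arrays and its standard error from the fit with the 4 group means. Filled points have a limma adjusted p under 0.05, and they number 54 below 0 and 4 above.

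**Figure D5:**
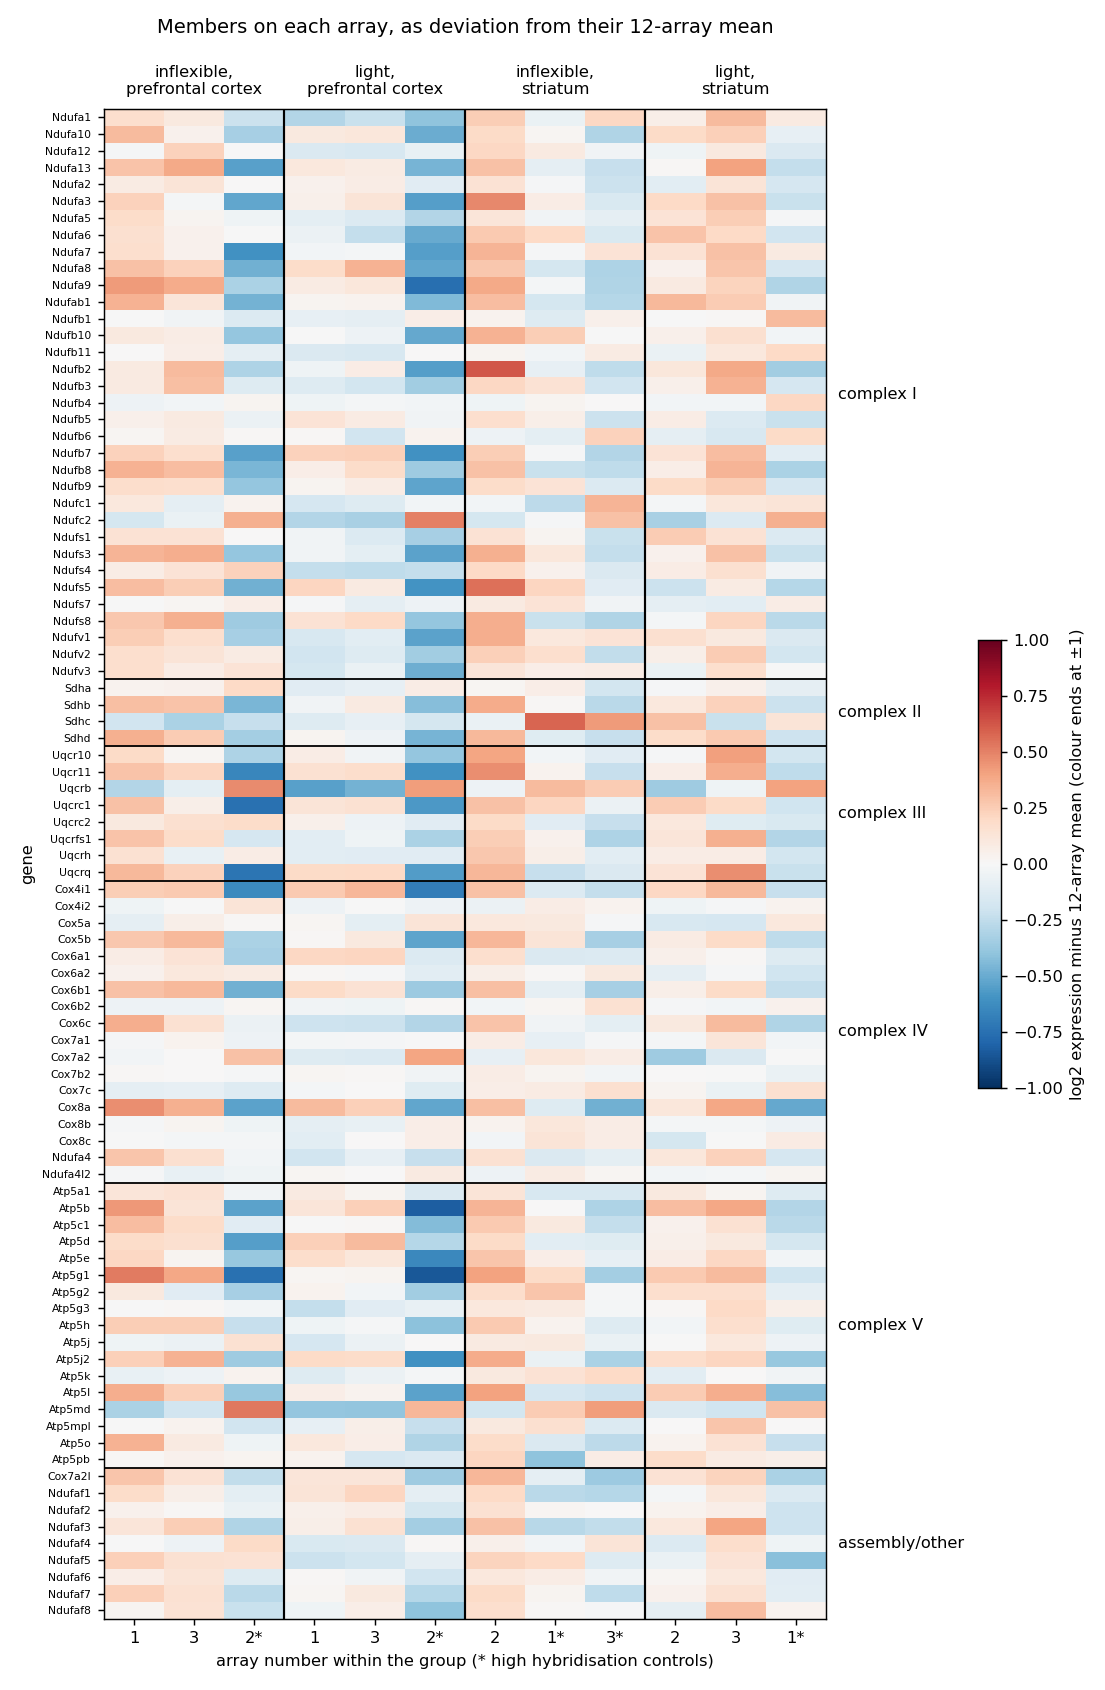
Rows are the 90 members by complex, columns the 12 arrays by group with high-control arrays starred, and colour is the log2 value minus the member's mean over 12 arrays. In each group the starred columns are bluer than the unstarred ones, most of all array 2 of light prefrontal cortex and least array 1 of inflexible striatum.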

How the data were processed

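The arrays were 1-colour oligonucleotide arrays hybridised with biotin-labelled material from total RNA, extracted with TRIzol per the labels' protocols. The authors deposited 1 table of log2 values per probe set and array, and RMA and affy are named, with no version, in the submitters' processing notes. The log base is not written there and was read from the range of the values. Of its 45101 probe sets, 64 controls stayed out of the tests.

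Differences were estimated with limma 3.58.1 (R 4.3.3) from 1 model holding the 4 group means and all 12 arrays (8 residual degrees of freedom, 7 with the split block), two-sided, with Benjamini-Hochberg adjustment over 45037 probe sets. The fit was tested on simulated data with independent noise on each array, a setting that arrays sharing 1 RNA pool would not meet. The members, gene lists and the split were chosen with earlier results of these data known. The split lies at the widest gap in the array mean of 9 hybridisation controls. Named were all called members (at most 12 each way), the 2 smallest p per complex, core subunits and isoform sets. Members outside that rule that are named for a count, an extreme or a change under another setting were chosen after their values were seen. Deviations of same-numbered arrays correlated at 0.741, 0.849 and 0.622 within prefrontal cortex, at 0.25, 0.262 and -0.637 within striatum and between -0.769 and 0.674 across regions. Every positive value joined arrays of the same control level and every negative one arrays of different levels. The sign thus followed the control level and not the array number. Within prefrontal cortex all same-numbered arrays share a control level, so there these values do not separate number from level. Pairing by number beyond the control level was not tested. Precision is limited by the number of arrays. Python 3.11.15, pandas 2.3.3 and numpy 2.4.6 handled the tables, and the alternatives are in the closing section.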

Additional observations from a re-analysis of the deposited data

How the results depend on the processing

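The median difference of the 90 members moved by less than 0.224 under every alternative run. That is the spread of the member median between arrays of a group, high-control and low-control arrays together. It is larger than the prefrontal, striatal and regional medians, so a move to 0 would also have stayed within it. Leaving out 1 array in turn took the median from 0.026 to 0.238 in prefrontal cortex, from -0.087 to 0.077 in striatum and from 0.010 to 0.097 between regions. No member passed in striatum, or for the difference between the regional class differences, under any alternative. In prefrontal cortex, where 0 passed without the split block, 5 passed with it, 3 on low-control arrays alone, 1 with the probe sets of a gene averaged, 1 with prefrontal arrays fitted alone, and 0 to 1 without single arrays (1, Ndufs4, without array 2 or array 3 of inflexible striatum). Between regions, where 0 passed, 1 passed with array median centring, 9 with the split block, 3 on low-control arrays alone, and 0 to 1 without single arrays (1 without array 2 of inflexible or array 3 of light striatum). Ndufs4 passed in prefrontal cortex in 7 of 24 alternatives, with differences from 0.08 to 0.47.

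For the pairing of array numbers, the replicate block left 0 members called in prefrontal cortex, 0 in striatum and 0 between regions. Alternatives added after seeing the data gave 3 in prefrontal arrays alone with the replicate block, 4 in prefrontal cortex (1.05% of all probe sets rose) and 19 between regions (4.64%) with the replicate and split blocks together, and 7 in light and 2 in inflexible drinkers between regions with the split block.

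The shift with the spiked controls was called for 58 members and for 53 to 61 without single arrays. With probe sets averaged it turned to -0.06 for Ndufc2, and Cox7a2 no longer passed (0.09, limma adjusted p = 0.153). Between regions Ndufs4 turned to -0.04 on high-control arrays alone, to -0.12 in inflexible drinkers and to -0.09 there with the split block. In inflexible drinkers Atp5l (-0.07), Ndufa5 (-0.06) and Sdhd (-0.10) turned as well, and without single arrays Atp5l ran from -0.04 to 0.19 and Sdhd from -0.03 to 0.14. In striatum Ndufs7, a core complex I subunit, turned to -0.02 on high-control arrays alone and to -0.04 with probe sets averaged. The cause of these changes was not tested. Signal near the bottom of the scale limits 12 of the 90 members.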
